A study of Mus musculus with 8 samples.

Results

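The 40 genes described here act in G2 phase, mitosis and cytokinesis. They were chosen by name, from *Birc5* and *Mki67* to *Arl6ip1* and *Kpna2*, out of 28001 genes in the count tables. Their unique molecular identifiers (UMIs, each standing for 1 captured RNA molecule) were counted in all 8 single-cell libraries, in cells with at least 3000 UMIs and at most 10% mitochondrial UMIs. The cells came from forelimbs of C57BL/6J mouse embryos. The 6 sorted libraries held tdTomato+ cells of Hic1CreERT2/CreERT2;Rosa26LSLtdTomato/tdTomato embryos, from whole forelimbs on embryonic day (E) 11.5, 12.5, 13.5 and 14.5 and, on E16.5, from a proximal segment (around the elbow) and a distal segment (distal zeugopod and autopod). The other 2 libraries were E11.5 whole limb replicates, in which both tdTomato+ and tdTomato- cells were captured. Dams of every group received 7.5 mg tamoxifen at E10, so that cells in which the *Hic1* locus drove Cre recombinase, and their descendants, carried the tdTomato reporter. Each sorted library pooled the limbs of several embryos and stood alone for its stage or segment, so differences among sorted libraries have no replicate check.

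Cyclin-dependent kinase 1, with cyclins A and B, drives a cell into mitosis. Kinetochore proteins, kinesin motors and the chromosomal passenger complex then attach and align chromosomes, and the anaphase-promoting complex marks cyclin B and other proteins for destruction so that the cell can divide. Many of these genes are transcribed late in the cell cycle through CCAAT boxes, bound by NF-Y, and cell cycle genes homology regions (CHR), bound by the DREAM and MuvB complexes. In the growing limb bud, division is widespread in the early mesenchyme and becomes unequal among tissues as cartilage, tendon and dermis form.

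Promoters of 34 of the 40 genes were found in the RefSeq promoter table of build GRCm38.p6, each as 300 bases from 250 before to 50 after the transcription start. The names not matched were *Ccna2*, *Cdc25c*, *Aurkb*, *Tpx2*, *Esco2* and *Cdca2*. A CHR letter string (TTTGAA or TTCGAA, on either strand) was present in 28 of the 34 (82.4%) and in 21.7% of the 27025 genes of the table. CCAAT, on either strand, was present in 27 of 34 (79.4%) against 41.1% of all genes. Both kinds of string stood together in 24 of 34 (70.6%) against 8.61%. At least 2 CCAAT strings at 31 to 33 bases from each other were found in 9 of 34 (26.5%) against 1.11%. *Birc5*, *Nuf2* and *Nusap1* held neither kind of string in this window. These matches describe letters and not bound sites. The 6 stretches below run 5′ to 3′ in the direction of the gene, from 150 bases before the start to 10 bases after it, with both strings in capitals on either strand. They are shown because they belong to genes whose levels the results turn on: *Cdc20*, among the members lowest at E16.5 relative to E11.5, *Cdk1* and *Prc1*, among the 4 whose levels differed least, *Ube2c* and *Top2a*, whose UMIs correlated well with the number of other members in a cell, and *Mki67*, with the largest excess in the distal segment.
Cdc20 (chr4:118437334-118437493, minus strand): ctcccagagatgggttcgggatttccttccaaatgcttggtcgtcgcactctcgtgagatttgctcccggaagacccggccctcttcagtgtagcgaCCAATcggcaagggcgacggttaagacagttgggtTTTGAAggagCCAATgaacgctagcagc
Cdk1 (chr10:69352903-69353062, minus strand): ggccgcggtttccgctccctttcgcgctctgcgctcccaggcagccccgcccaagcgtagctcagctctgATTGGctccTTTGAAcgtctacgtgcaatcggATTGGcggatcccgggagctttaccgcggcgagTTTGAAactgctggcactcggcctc
Ube2c (chr2:164769779-164769938, plus strand): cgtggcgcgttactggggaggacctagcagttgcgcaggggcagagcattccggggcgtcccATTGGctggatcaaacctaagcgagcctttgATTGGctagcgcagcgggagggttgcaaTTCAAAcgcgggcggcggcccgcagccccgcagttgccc
Top2a (chr11:99024180-99024339, minus strand): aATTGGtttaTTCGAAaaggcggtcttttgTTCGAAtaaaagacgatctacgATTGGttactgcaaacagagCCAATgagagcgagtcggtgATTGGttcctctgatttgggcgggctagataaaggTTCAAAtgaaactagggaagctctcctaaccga
Prc1 (chr7:80294301-80294460, plus strand): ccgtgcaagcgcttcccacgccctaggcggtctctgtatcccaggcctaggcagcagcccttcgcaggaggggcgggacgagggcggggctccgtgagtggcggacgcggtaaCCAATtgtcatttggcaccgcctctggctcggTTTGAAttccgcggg
Mki67 (chr7:135716370-135716529, minus strand): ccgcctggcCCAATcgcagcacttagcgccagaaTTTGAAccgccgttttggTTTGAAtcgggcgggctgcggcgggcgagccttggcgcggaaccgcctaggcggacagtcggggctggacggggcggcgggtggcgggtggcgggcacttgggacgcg

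After filtering, 3165 to 11109 cells remained in a sorted library and 5464 and 5682 in the whole limb libraries, with 31500092 to 234893903 UMIs per library. The filter was uneven. It kept 74.2% of cell barcodes for E11.5 sorted, and 88.8% to 94.8% for each later stage or segment. For whole limb replicates 1 and 2 it kept 97.7% and 98.6%. Their barcodes started at 2396 and 2274 UMIs before filtering, where those of sorted cells started at 500 to 502. Median depth was 6788 to 8992 UMIs per cell in the E11.5 to E13.5 libraries, made with the v2 kit, and 14333 to 18473 in the E14.5 and E16.5 libraries, made with the v3 kit. The kit thus changed between E13.5 and E14.5, and kit and stage cannot be told apart at that step. For the whole limb libraries no kit is given on its own, but the study gives v2 for E11.5 samples and names these libraries among them. They shared 24 to 48 cell barcodes with each E11.5 to E13.5 sorted library and 0 to 5 with each E14.5 and E16.5 library. *Hic1* stood at 22.0 to 38.02 UMIs per 1000000 UMIs (CPM) in the sorted libraries and at 0.702 and 0.741 in the whole limb libraries. tdTomato stood at 427 to 1341 CPM against 3.88 and 4.21. At most 48 cell barcodes were shared between any pair of the libraries. No member was at 0 in any library, and the lowest count was 355 UMIs, for *Kpna2* at E11.5.

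Summed over the 40 genes, the level was 4499 CPM on E11.5, then 3041 (E12.5), 2601 (E13.5), 1877 (E14.5), 1835 in the E16.5 proximal segment and 1722 in the distal segment. The whole limb libraries held more, 5710 and 5519 CPM. The summed level was therefore lower at each later stage, with the largest steps between E11.5 and E12.5 and between E13.5 and E14.5, and it differed little between E14.5 and the E16.5 segments. The log2 ratio of the summed level was -1.29 for E16.5 proximal over E11.5, with a 95% counting half-width of 0.00866. Poisson and binomial intervals in this report cover counting error only, not the spread between embryos.

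**Figure D1:**
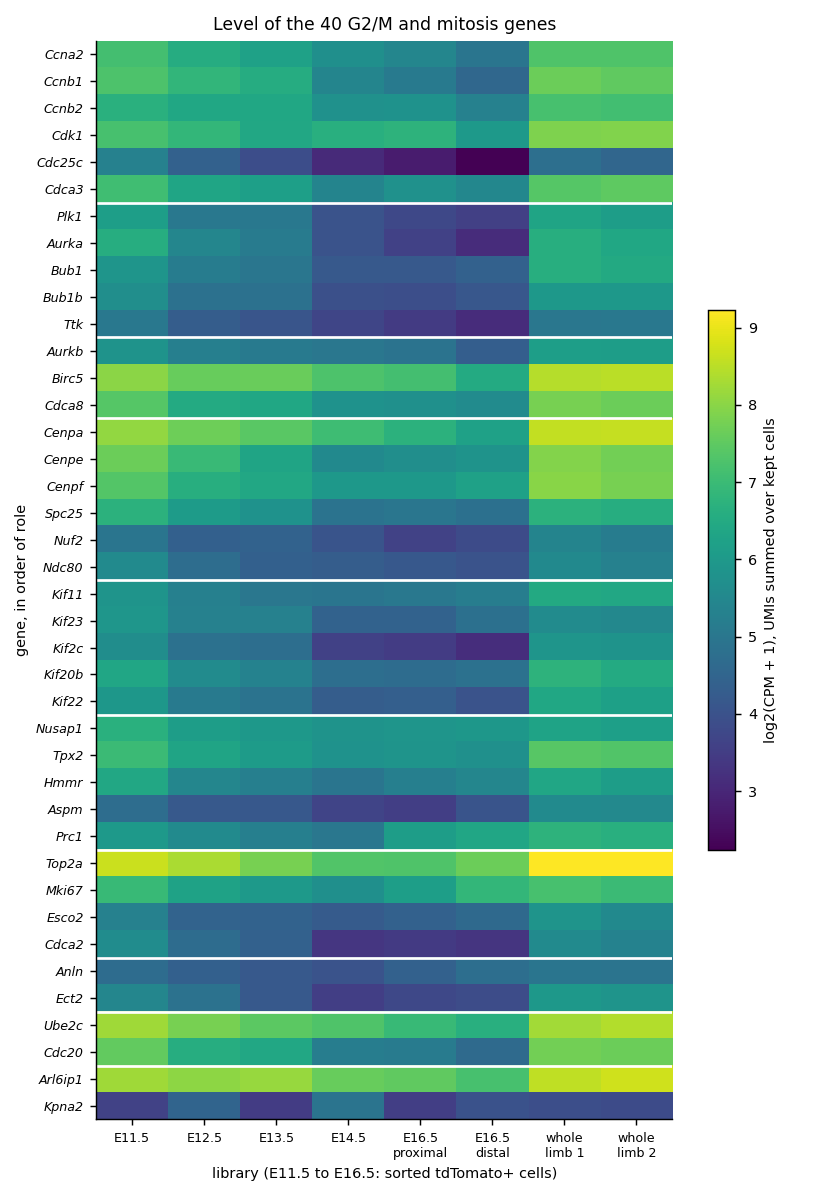
Level of each of the 40 genes (rows, grouped by role with white lines between roles) in each library (columns), as log2(CPM + 1) of UMIs summed over kept cells. Most rows darken from E11.5 to E16.5 and are brightest in the whole limb libraries, where Top2a stood at 596 and 591 CPM.

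Within the v2 libraries, all 40 members were lower at E13.5 than at E11.5, with a median log2 ratio of -0.90. Of all genes at 5 CPM or more in either library, 57.3% were lower and their median was -0.09. Of the members, 11 were at least 2-fold lower, where 3.49% of all genes were. These were *Aurka*, *Plk1*, *Cdc25c*, *Cdc20*, *Cenpe*, *Ndc80*, *Kif20b*, *Kif22*, *Hmmr*, *Cdca2* and *Ect2*. The median E12.5 over E11.5 log2 ratio was -0.67, 39 of 40 members were lower, where 55.0% of all genes were, and 3 (*Plk1*, *Aurka* and *Hmmr*) were at least 2-fold lower, where 0.994% of all genes were. From E12.5 to E13.5, 35 of 40 were lower with a median of -0.20, where 55.5% of all genes were. The study digested E11.5 and E12.5 limbs with Dispase, and those from E13.5 on with collagenase, pronase and DNase. Digestion and stage therefore cannot be told apart between E12.5 and E13.5.

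Across the change of kit, 38 of 40 members were lower at E14.5 than at E13.5, where 64.2% of all genes were lower, and 6 were at least 2-fold lower, where 5.07% of all genes were. *Cdc20*, *Kif2c*, *Ccnb1*, *Aurka*, *Cdca2* and *Plk1* were these 6, at log2 ratios from -1.24 to -1.01. *Kpna2* was at least 2-fold higher, where 4.47% of all genes were. Within the v3 libraries the members hardly differed in level between E14.5 and the E16.5 proximal segment. There, 24 were lower and 16 higher, with a median of -0.03, and 64.9% of all genes were lower with a median of -0.20. *Prc1* alone was at least 2-fold higher, where 7.09% of all genes were, and *Kpna2* alone at least 2-fold lower, where 6.46% were.

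Over the whole interval, 28 of 40 members were at least 2-fold lower in the E16.5 proximal segment than at E11.5, where 28.0% of 10903 genes were, and 39 were lower by any amount, where 67.0% of all genes were. Kit, digestion and limb part also differed between the E11.5 and E16.5 proximal libraries. None of them can be told apart from stage in any ratio of E16.5 proximal over E11.5 given here. The members' median log2 ratio was -1.38 and that of all genes was -0.47. With CPM + 10 in place of CPM + 1, 26 members and 13.8% of all genes were at least 2-fold lower. With no minimum level and CPM + 0.1, 28 members and 16.2% of all genes were. The other genes of the division programme, from lists of related genes, stood lower as well. Of 40 other G2/M genes, 28 were at least 2-fold lower (median -1.35), with *Psrc1*, a microtubule regulator, at -2.25 and *Ncapd2*, a condensin subunit, at -2.11. Of 40 G1/S and DNA replication genes, 24 were at least 2-fold lower (median -1.15), with the ribonucleotide reductase subunit *Rrm2* at -2.24 and the replicative helicase subunit *Mcm5* at -2.09. Of 17 CDK inhibitors, D-type cyclins and related genes, 15 reached 5 CPM, and among them 4 were at least 2-fold lower, a share near the 28.0% of all genes, and 4 at least 2-fold higher, where 13.8% of all genes were. The D-type cyclins *Ccnd2* and *Ccnd1*, which act in G1, were at -1.75 and -1.23, and the CDK inhibitors *Cdkn1a*, *Cdkn2c* and *Cdkn1c* were at 3.63, 2.22 and 1.91.

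The members differed in the size of the ratio. The mitotic kinases, summed, stood lowest relative to E11.5. *Aurka* (ENSMUSG00000027496, mm10 chr2:172356190-172370535, minus strand), the kinase that matures centrosomes, was at 94.5 CPM on E11.5, then 42.4 (E12.5), 34.2 (E13.5), 15.4 (E14.5), 11.1 in the E16.5 proximal segment and 7.71 in the distal segment. Every later sorted library was below the one before it, and the E16.5 proximal over E11.5 log2 ratio was -2.98. *Plk1*, which acts from mitotic entry to cytokinesis, went from 70.1 CPM at E11.5 to 12.5 in the proximal segment (log2 ratio -2.40). The checkpoint kinases *Bub1*, *Bub1b* and *Ttk* lay at -1.70, -1.76 and -1.58. The 5 kinases together held 305 CPM on E11.5, then 140 (E13.5), 74.4 (E14.5) and 64.8 in the proximal segment.

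*Cdc20* (ENSMUSG00000006398, mm10 chr4:118432901-118437352, minus strand), the activator of the anaphase-promoting complex, was at 186 CPM on E11.5, then 95.1 (E12.5), 85.5 (E13.5), 35.6 (E14.5), 34.6 proximally and 24.3 distally at E16.5. Its level was nearly the same at E12.5 and E13.5 and again at E14.5 and E16.5 proximal, with a gap where the kit changed. *Ube2c*, the ubiquitin-conjugating enzyme that works with the same complex and whose promoter also holds both strings, had a smaller ratio, going from 297 CPM on E11.5 to 174 (E13.5), 157 (E14.5) and 123 proximally (log2 ratio -1.27).

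Among the cyclins and regulators of Cdk1, the phosphatase *Cdc25c*, which activates Cdk1, was at a log2 ratio of -2.51 and cyclin B1 (*Ccnb1*) at -2.14. *Cdca3*, which helps remove an inhibitor of mitotic entry, was at -1.31. Cyclin A2 (*Ccna2*) was at -1.69 and cyclin B2 (*Ccnb2*) at -0.86. *Cdk1* itself lay at only -0.44. It stood at 144 CPM on E11.5, then 114 (E12.5), 84.6 (E13.5), 98.9 (E14.5), 106 proximally and 64.3 distally. *Cdk1* was therefore higher in the E14.5 and E16.5 proximal libraries than at E13.5, while its partner *Ccnb1* went from 93.5 to 42.0 and 33.7 CPM in the same libraries. The kit changed between E13.5 and E14.5, so kit and stage cannot be told apart in this contrast.

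The chromosomal passenger genes were closer to each other. *Birc5* (survivin) lay at -0.87, the kinase *Aurkb* at -0.93 and *Cdca8* (borealin) at -1.62. The centromere and kinetochore genes ranged from -1.98 for *Cenpe*, a kinesin that carries chromosomes to the metaphase plate, with *Cenpf*, an outer kinetochore protein, at -1.41, to -1.34 for *Nuf2*, a subunit of the microtubule-binding Ndc80 complex. The kinesins ranged from -2.19 for *Kif2c*, which depolymerises microtubules, to -0.82 for *Kif11*, which separates the spindle poles. *Top2a*, the topoisomerase that untangles sister chromatids, was at 405 CPM at E11.5, 323, 220, 158, 158 and 202 in the later sorted libraries in order of stage and segment.

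*Prc1* (ENSMUSG00000038943, mm10 chr7:80294450-80316259, plus strand), which bundles microtubules of the central spindle, was the exception in direction. It stood at 63.7 CPM on E11.5, then 46.7 (E12.5), 37.3 (E13.5), 31.4 (E14.5), 68.2 proximally and 82.3 distally at E16.5. Its level was lower at each step up to E14.5 and then at least 2-fold higher, for a log2 ratio of 0.10 between the proximal segment and E11.5. *Anln*, the actin-binding protein of the cleavage furrow, was at -0.31. *Kpna2*, a nuclear import receptor, moved in no steady direction, with 11.3, 21.4, 10.2, 29.6, 10.5 and 15.0 CPM. A processed pseudogene, *Kpna2-ps*, is annotated, and the assignment of reads between it and *Kpna2* was not tested.

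**Figure D2:**
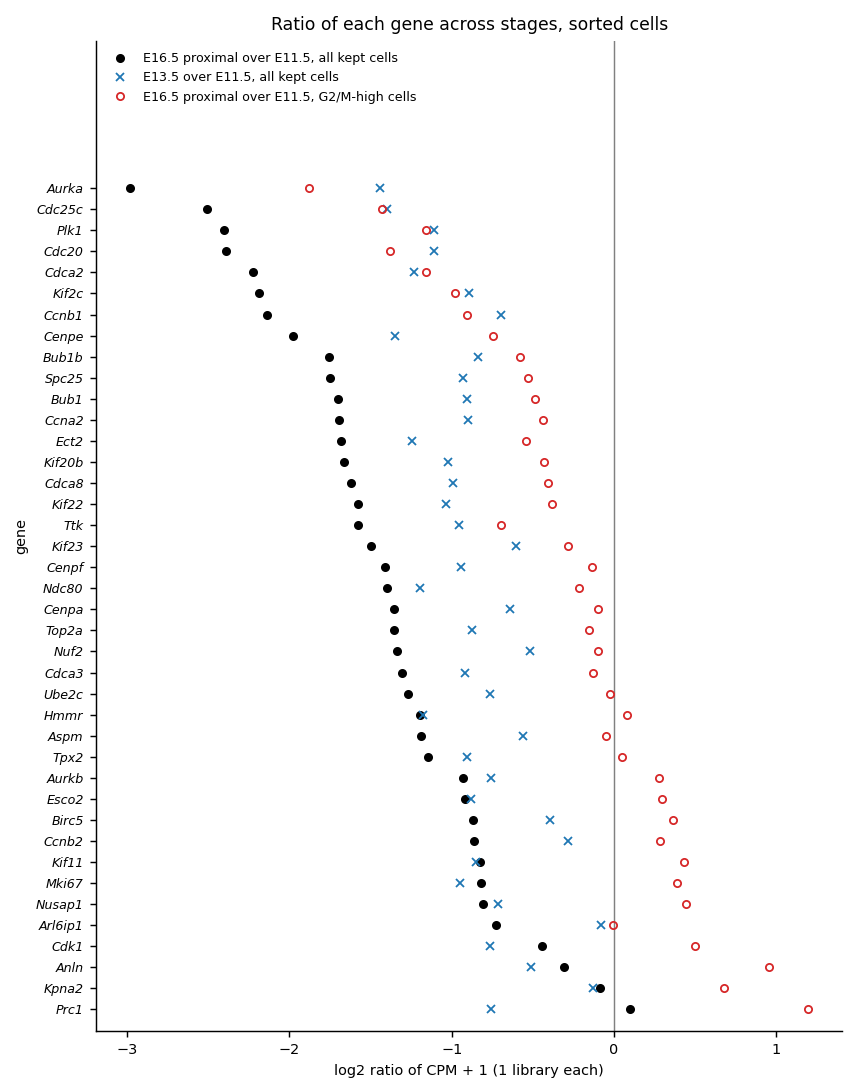
Log2 ratio of CPM + 1 for each of the 40 genes (rows, ordered by the ratio over all cells): E16.5 proximal over E11.5 in all kept cells (filled circles), the same in G2/M-high cells (open circles) and E13.5 over E11.5 in all kept cells (crosses), 1 library each. Aurka lies farthest left at -2.98, Prc1 at 0.10, and the open circles lie nearer 0 or to its right.

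To count the cells that held these transcripts, every cell was thinned to 3000 UMIs. A cell with a UMI of at least 5 of the 40 genes was called G2/M-high. The name refers to the genes used, and the phase of these cells was not measured. Of 40 G1/S and DNA replication genes, edgeR also called 35 higher and 1 lower in them. Their share is therefore not the fraction of cells in G2 or mitosis. That share was 44.2% on E11.5 (exact 95% binomial interval 42.5 to 45.98), then 25.2% (E12.5), 20.7% (E13.5), 15.4% (E14.5), 17.7% in the E16.5 proximal segment (17.0 to 18.4) and 12.1% in the distal segment (11.4 to 12.8). It was 70.4% and 70.3% in the whole limb libraries. Filtering kept the smallest part of barcodes for E11.5 sorted, and its effect on the share there was not tested. Cells near the limit, with 4 or 5 of the genes, made up 2.46% to 12.04% of a library. A G2/M-high cell, chosen by these same genes, held on average 19.8 to 27.2 member UMIs out of 3000, and the distal E16.5 library, with the lowest share, had the highest amount. The other cells held 0.725 to 2.69. In each sorted library the cluster with the fewest member UMIs was taken, from clusters of at least 50 cells and without *Arl6ip1* and *Kpna2*. It held 0.475 to 2.10 member UMIs per cell and 0.714% to 7.23% G2/M-high cells. What free RNA adds to these values was not tested. The corresponding whole limb clusters held 9.42 and 10.0 UMIs, with 36.3% and 38.7% G2/M-high cells.

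**Figure D3:**
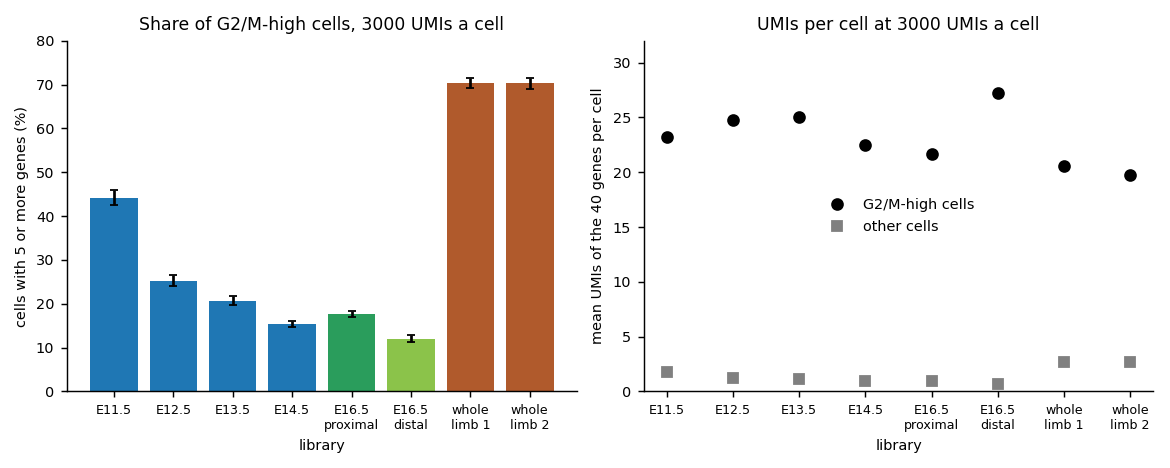
Left, share of cells (%) with a UMI of 5 or more of the 40 genes after thinning to 3000 UMIs a cell, with exact 95% binomial intervals as error bars. Right, mean UMIs of the 40 genes per cell in those cells (circles) and in the others (squares). The share spans 12.1% to 70.4% while the circles stay between 19.8 and 27.2.

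Since the G2/M-high cells were called from these genes, member levels inside them are a description. Summed over the members, the E16.5 proximal over E11.5 log2 ratio was -0.13 in G2/M-high cells, and -1.29 in all cells. The choice of cells by the members holds the former near 0, so the ratios do not divide the difference between number of cells and amount per cell. *Aurka* was at 164 CPM in the G2/M-high cells of E11.5 and 43.9 in those of the proximal segment (log2 ratio -1.88), *Cdc25c* at -1.43 and *Cdc20* at -1.38. *Prc1* went the other way, from 114 to 264 CPM (1.20), followed by *Anln* at 0.96.

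The members also differed in how their UMIs went with those of the others. Across cells, the correlation between a member's UMIs and the number of other members detected was high for *Top2a* (r = 0.61 to 0.81 over the 8 libraries) and *Ube2c* (0.62 to 0.77) and low for *Kpna2* (0.12 to 0.34). Such a correlation also moves with a gene's level, and *Top2a* was at 158 to 596 CPM where *Kpna2* was at 10.2 to 29.6. The cells of a library share its depth and free RNA. Among cells with 0 or 1 other members, *Arl6ip1*, which encodes a membrane protein of the endoplasmic reticulum, was detected in 19.7% to 30.03%. *Cenpa*, the centromeric histone, was detected in 2.57% to 29.6% of such cells, *Birc5* in 2.58% to 16.9% and *Kif2c* in 0.0174% to 0.990%. *Arl6ip1* was thus common in cells without the rest of the programme, and 56.8% to 94.0% of its UMIs came from G2/M-high cells, against 94.2% to 98.7% for *Nusap1*, a spindle protein.

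The E16.5 segments were compared to see whether the programme differed along the limb. The summed log2 ratio, distal over proximal, was -0.09 with a counting half-width of 0.00691, while the share of G2/M-high cells was 5.64 percentage points lower distally (-3.10 with 10 members required and -16.7 with no thinning). Of the members 22 were lower and 18 higher, where 40.7% of all genes were lower, and none was 2-fold lower or higher, where 4.39% and 4.42% of all genes were. The ratio was -0.24 when every cell counted equally at 3000 UMIs and -0.20 without cells of epithelial clusters. Suprabasal epithelial-like cells of the proximal library had a median of 46117 UMIs and only 604 CPM of the members.

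The direction in the segments followed transcript length in many members, with exceptions. Of the 20 members whose longest annotated transcript was at most 3556 bases, 4 were higher distally (median log2 ratio -0.32), and of the 20 longer members 14 were (median 0.18). The same split was present in genes outside the list at 50 CPM or more, at -0.17 for 1874 shorter and 0.40 for 1479 longer genes. The proximal library was processed with Cell Ranger 3.0.2 and the distal one with 6.0.1, and the part of this in the result was not tested. *Mki67*, whose product coats mitotic chromosomes and whose longest transcript has 10061 bases, was at 69.6 CPM proximally and 116 distally. *Top2a* was at 158 and 202. *Birc5*, with 3334 bases, was at 141 and 90.8. *Cdk1* was at 106 and 64.3. Its longest transcript has 4375 bases, among the longer members, yet it had the lowest ratio of the 40, at -0.71. These genes of the same programme thus lay in opposite directions between the segments. Between stages, the medians at E16.5 proximal over E11.5 were -1.60 for the shorter and -1.35 for the longer members, and -0.44 and -0.57 for other genes. At E14.5 over E13.5, across the change of kit, they were -0.70 for the shorter and -0.38 for the longer members, and -0.14 and -0.12 for other genes. At E16.5 proximal over E14.5, 4 of 20 shorter members were higher (median -0.11) and 12 of 20 longer ones (median 0.06), where other genes were at -0.20 and -0.16.

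**Figure D4:**
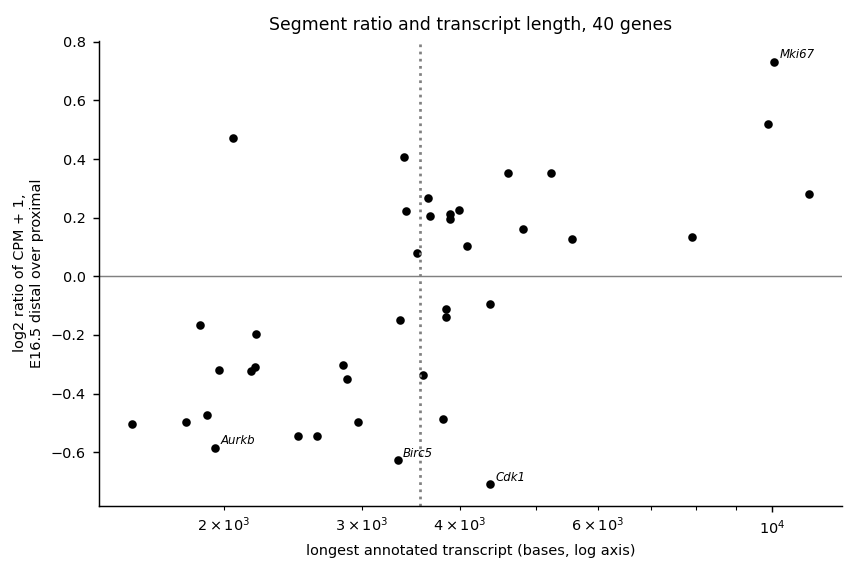
Log2 ratio of CPM + 1, E16.5 distal over E16.5 proximal, of each of the 40 genes (points) against the length of its longest annotated transcript in bases (log axis). The dotted line marks the median length of 3556 bases. Of the points to its right 14 lie above 0, and of those at or left of it 4 do.

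Cell classes were named from marker genes after clustering. Clusters made with the cell cycle lists left out still separated dividing from other cells. The shares here therefore come from clusters for which genes that followed the cycle were also left out and the scores regressed. Such clusters are drawn apart from the programme that the shares measure, and what this does to the shares was not tested. In the proximal E16.5 library, 45.1% of 326 basal epithelial-like cells were G2/M-high, and 6.38% of 611 suprabasal epithelial-like cells, at equal depth. Dividing basal cells feed the suprabasal layers of the epidermis, and the study removed *Krt1*- or *Krt14*-positive epithelial cells from its E16.5 data. Among mesenchymal classes of the proximal library, 26.1% of 1479 dermal fibroblast-like, 22.7% of 841 tenocyte-like, 22.5% of 511 pericyte-like, 13.6% of 2006 fibroblast-like and 12.4% of 1354 chondrocyte-like cells were G2/M-high. In the distal library these were 21.8% of 1527 dermal fibroblast-like, 18.1% of 504 tenocyte-like, 20.3% of 222 pericyte-like and 13.2% of 514 chondrocyte-like cells, and 87 of 725 fibroblast-like cells were G2/M-high. Osteogenic-like cells were at 14.5% of 235 proximally and 6.16% of 341 distally. Classes of the same name were partly made of different clusters in the segments. Of 514 distal chondrocyte-like cells, 480 lay in a cluster with 6 proximal cells. Of 1527 distal dermal fibroblast-like cells, 1035 lay in a cluster with 9 proximal cells. As named, dermal, tenocyte-like and pericyte-like cells were thus above fibroblast-like and chondrocyte-like cells in both libraries. The binomial intervals of the former and the latter did not overlap in the proximal library, while in the distal library those of tenocyte-like (14.8 to 21.7) and pericyte-like cells (15.2 to 26.2) overlapped that of chondrocyte-like cells (10.4 to 16.5). The intervals take cells as independent, and no test between classes was made. These clusters were added after seeing the data. Their proximal shares of those mesenchymal classes ran from 12.4% to 26.1%, against 8.51% to 31.2% in the clusters as first made. In the clusters as first made, the proximal shares were 31.2% of 1247 dermal fibroblast-like, 22.5% of 875 tenocyte-like, 28.7% of 157 pericyte-like, 8.51% of 611 fibroblast-like and 12.8% of 1063 chondrocyte-like cells, and 22 distal cells were chondrocyte-like and 17 osteogenic-like. In them, the basal epithelial-like minus chondrocyte-like difference in the proximal library was 32.6 percentage points, and it was 10.3 when 10 members were required. At that limit basal epithelial-like cells (19.6%) no longer stood above dermal fibroblast-like cells (21.9%).

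Chondrocyte-like cells could be followed over stages. Their G2/M-high share was 30.9% of 246 cells at E12.5, 19.5% of 737 at E13.5, 126 of 900 cells at E14.5 and 12.4% of 1354 in the proximal segment. The intervals of E14.5 (11.8 to 16.4) and E16.5 proximal (10.7 to 14.3) overlapped. The order of the stages depended on how the class was drawn. In the clusters as first made, the share was 50.3% of 817 cells (E13.5), 13.6% (E14.5) and 12.8% in the proximal segment, with no chondrocyte-like class of 50 cells at E12.5. At the finer resolution it was 2.93% of 273 cells (E12.5), 49.3% (E13.5), 7.5% (E14.5) and 14.7% proximally. Cells called singly by their markers gave 28.0%, 21.9%, 12.8% and 13.8%, so that only the lower share at E14.5 and E16.5 proximal than at E13.5 was common to all 4. That difference spans the change of kit, so kit and stage cannot be told apart in it, however the class was drawn. Of myogenic progenitor-like cells in the whole limb libraries, 74.8% and 78.2% were G2/M-high, against 70.4% and 70.3% of all cells there.

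**Figure D5:**
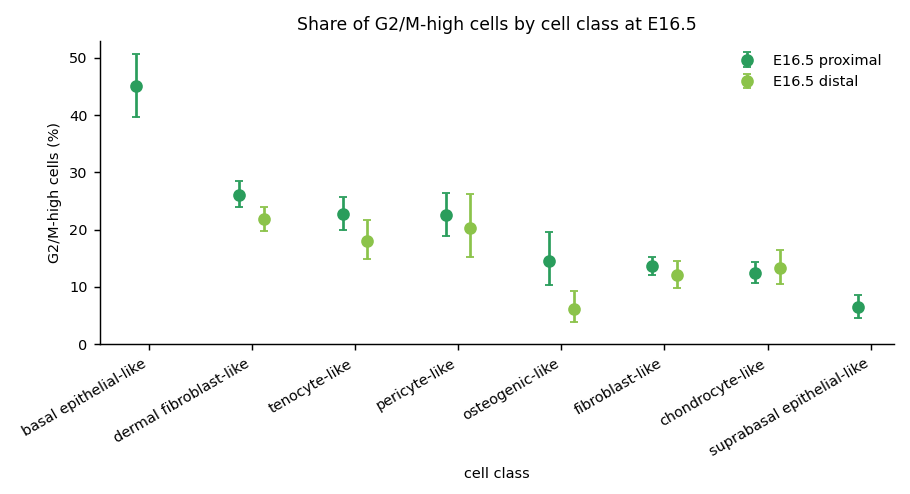
Share of G2/M-high cells (%) by cell class in the E16.5 proximal and distal libraries, with exact 95% binomial intervals. At this limit of 5 members, basal epithelial-like cells lie highest at 45.1% and suprabasal epithelial-like cells, in the proximal library, lowest there at 6.38%.

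At E11.5 the sorted cells were compared with the 2 whole limb libraries, after myogenic, epithelial, endothelial, immune, erythroid and glial clusters had been left out, which kept all 3165 sorted cells and 93.0% and 93.8% of whole limb cells. Of the 40 members, 31 were lower in the sorted library and 2 higher (edgeR quasi-likelihood test, Benjamini-Hochberg adjusted over 15066 genes), where 26.6% of all genes were lower and 26.9% higher. The members' median log2 ratio, sorted over whole limb, was -0.51 and that of all genes was 0.02. The lone sorted library is assumed here to vary like the whole limb libraries, which the labels do not tie to separate litters, so the p-values may measure technical spread only. The study found tdTomato+ cells mostly in the proximal part of the E11.5 limb, while the whole limb libraries came from entire limbs. Limb position and sort therefore cannot be told apart in this comparison.

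*Aspm*, a spindle pole protein, had the lowest ratio, at 25.5 CPM in the sorted library and 48.6 and 46.9 in the whole limb libraries (log2 ratio -1.09 ± 0.12 SE, adjusted p = 4.03e-18). *Cdk1* was at 144 CPM against 237 and 239 (-0.91 ± 0.10, adjusted p = 1.13e-16). *Top2a* was at 405 against 607 and 601 (-0.76 ± 0.12, adjusted p = 1.47e-09). In each of these the sorted value lay below both whole limb values. *Cdc25c* was higher, at 38.3 CPM against 27.6 and 22.8 (0.42 ± 0.12, adjusted p = 0.00198), as was *Nusap1*, at 101 against 78.8 and 72.5 (0.23 ± 0.09, adjusted p = 0.0251). The 7 members that passed in neither direction were *Aurka*, *Ttk*, *Spc25*, *Ndc80*, *Kif23*, *Hmmr* and *Cdca2*, with log2 ratios from -0.19 to 0.16. Both higher calls were lost with DESeq2 and with no filter on low counts, and limma-voom called 1 member higher.

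Of the G1/S and DNA replication genes 33 of 40 were lower and none higher, with *Hells*, a chromatin remodeller, at -1.33 and the replication licensing inhibitor *Gmnn* at -1.12. Of the other G2/M genes 22 were lower and 2 higher. Of the CDK inhibitor and D-type cyclin list, 15 were tested, 4 were lower and 5 higher, shares near those of all genes. The antiproliferative genes *Btg1* (0.85 ± 0.11, adjusted p = 3e-13) and *Btg2* (0.80 ± 0.09, adjusted p = 3.46e-16) were higher and the CDK inhibitor *Cdkn1a* (-0.65 ± 0.15, adjusted p = 3.78e-05) was lower. Scaling mattered here. With library totals in place of edgeR's TMM factors, all log2 ratios shifted by 0.18, 22 members were lower and 3 higher (*Cdc25c*, *Nusap1* and *Kif23*), and of all genes 2473 were lower and 5504 higher in place of 4006 and 4054. With no filter on low counts, 20 members were lower, as were 2021 of 20165 genes.

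Genes outside the list were then compared between G2/M-high and other cells, summed per library with the library as a block, 16 sums in all. Of 14306 genes, 2598 (18.2%) were higher and 3754 (26.2%) lower in G2/M-high cells (edgeR, adjusted p below 0.05). Of the 40 other G2/M genes, 39 were higher, with a median log2 ratio of 2.87. The cells were called from the members, so genes expressed together with the members come out higher through that choice. The ratios and p-values of such genes, here and below, are a description and no separate support. *Ckap2l* and *Kif4*, which act on the spindle and on chromosomes, had log2 ratios of 5.31 and 4.90 and were higher in all 8 libraries. *Pttg1*, securin, did not pass. Of 40 G1/S and DNA replication genes, 35 were higher and 1, *Ung*, lower, with a median of 0.97, so the cells called by mitotic genes also held more replication transcripts.

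The D-type cyclins lay the other way. *Ccnd2* averaged 512 CPM in G2/M-high and 895 in other cells (log2 ratio -0.77 ± 0.06, adjusted p = 5.94e-06), *Ccnd1* 162 and 242 (-0.51 ± 0.06, adjusted p = 5.55e-05), and *Ccnd3* 190 and 229 (-0.24 ± 0.05, adjusted p = 0.00328). Each was lower in G2/M-high cells in all 8 libraries. Of the 15 genes tested in the list of CDK inhibitors and D-type cyclins, 4 were higher and 5 lower. Of the CDK inhibitors, *Cdkn2c* (3.01 ± 0.25, adjusted p = 9.3e-06), *Cdkn2d* (0.83 ± 0.09, adjusted p = 4.5e-05) and *Cdkn1b* (0.46 ± 0.07, adjusted p = 0.000632) were higher and *Cdkn1c* was lower (-0.48 ± 0.09, adjusted p = 0.00116). *Cdkn1a* and *Btg1* did not pass.

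Outside all lists, the genes with the largest excess in G2/M-high cells were *Depdc1a* (5.95 ± 0.42), *Fam64a* (4.95 ± 0.44), the linker histone gene *Hist1h1b* (4.71 ± 0.48), the cytokinesis kinesin *Kif20a* (4.69 ± 0.30), the condensin subunit *Ncapg*, *Casc5*, *Hist1h2ap*, *Kifc1*, *Kif15* and *Hist1h1a*. All 10 were higher in all 8 libraries, with adjusted p from 3.73e-07 to 6.78e-05. The genes with the largest deficit were the suprabasal keratin *Krt1* (-1.55 ± 0.39), *Lgals3*, *Ogn* (-1.09 ± 0.09), *Igfbp5*, *Mxd4* (-0.97 ± 0.04), *Mxra8*, *Clec3b*, *Aspn*, *Sepp1* and *Ypel3*. Of these, *Lgals3* was higher in 3 of 8 libraries and *Clec3b* in 2, and the other 8 were lower in all. *Krt1* and *Lgals3* had their lowest ratios, -3.11 and -2.43, in the E16.5 proximal library. The highest ratio of *Krt1* in any library was -0.08. The proximal library also held 611 suprabasal epithelial-like cells, of which 6.38% were G2/M-high, and their part in these ratios was not tested. *Mxd4* encodes a partner of Max that opposes Myc, and *Ogn* and *Aspn* encode small leucine-rich proteins of the matrix. The cells also differed in type and depth. Weighted so that other cells had the cluster make-up of G2/M-high cells, 2235 genes passed, and 5824 with the clusters from which cycle-following genes had been left out. All 20 named genes kept their direction with an adjusted p below 0.05 under the latter weighting. The named genes were not examined under the former, which left fewer genes passing.

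G2/M-high cells yielded more RNA. Their median depth before thinning was 1.36 to 1.57 times that of other cells, higher in 8 of 8 libraries (mean log2 ratio 0.55 ± 0.07 SD, exact two-sided sign-flip permutation test, p = 0.00781, the smallest that 8 libraries allow). Within the largest cluster of each library the mean was 0.18, with a range from -0.17 to 0.51, higher in 7 of 8 (exact permutation p = 0.0391). Cells ranked as likely doublets made up 4.29% to 16.3% of G2/M-high and 1.11% to 7.30% of other cells, and the mean was 0.52 without them. The permutation tests, and the fit above, took the 8 libraries as independent. The study split E16.5 forelimb pairs into the segments, so these libraries may share embryos, and the whole limb replicates are not tied to separate litters. *Hic1* was lower in G2/M-high than in other cells of each of the 8 libraries, from 21.1 against 22.3 CPM in the proximal segment to 21.8 against 29.0 in the distal segment among the sorted ones, and was not tested. tdTomato lay in no single direction, at 434 and 477 CPM at E11.5 and at 1436 and 1314 in the proximal segment.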

How the data were processed

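Single cells of mouse forelimbs were profiled with 10x Genomics 3′ kits in 8 libraries. The authors deposited UMI counts per gene and cell, raw and not normalized. Per the submitters' processing notes and the matrix headers, reads were counted with Cell Ranger (3.0.2 for 5 sorted libraries and 6.0.1 for E16.5 distal, while the whole limb headers name none, and the study's reporting summary names a single version for all its single-cell data that is neither of these) on a modified mm10 reference. Intronic reads and strand settings are not given in the sources used here. Doublet removal by the authors is not stated.

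Cells with at least 3000 UMIs and at most 10% mitochondrial UMIs were kept. Counts were summed over cells and given as CPM. Ratios are log2 of CPM + 1, over genes at 5 CPM or more in either library. For shares, each cell was thinned to 3000 UMIs (seed 20). Scrublet (scanpy 1.11.5) scored doublets. Its own threshold marked at most 5 cells in a library, so the top 0.8% per 1000 cells were taken, left in, and left out as an alternative. Cells were clustered per stage (2000 variable genes, 50 components, 25 neighbours, Leiden resolution 1), leaving out the cell cycle lists and histone genes. A cluster was named if at least 3 and 50.0% of a class's markers were raised 2-fold in 10% of its cells. That naming rule was tightened, and the clustering without cycle-following genes (correlation of at least 0.15 with a score) and the fit with library totals were added, after seeing the data. Tests were edgeR 4.0.16 (quasi-likelihood, false discovery rate 0.05), with DESeq2 1.42.0 and limma 3.58.1 as alternatives, tested on simulated data. Coordinates come from the GENCODE annotation of GRCm38 (mm10) and promoters from RefSeq.

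The members and lists were chosen with earlier results of these data known. Named are all 40 members, up to 6 genes of each other list by size of ratio, and the 10 genes in each direction with the largest ratio at 50 CPM or more between G2/M-high and other cells. *Ccnd1* over stages, and *Cdkn1b*, *Ung*, *Pttg1*, *Ccnd3*, *Cdkn1a* and *Btg1* were named after their values were seen. No test was made among the 6 sorted libraries, which have 1 library a group. Clusters named distal mesenchyme-like, whose leading genes held few of that class's markers, are not described, nor are classes under 50 cells.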

Additional observations from a re-analysis of the deposited data

Results flagged for a closer look

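In the comparison of G2/M-high with other cells, *Clec3b*, which encodes tetranectin, had a positive log2 ratio in both whole limb libraries (mean 0.11) and a negative one in all 6 sorted libraries (mean -0.49, from -1.09 to -0.04). This difference between the sorted and whole limb libraries was not tested. For *Mxd4*, the E16.5 proximal library lay apart from the other 7, at a log2 ratio of -0.69 against -1.13 to -0.92. Of 39 sets of library values examined in this way 1 stood out, and chance alone singles out about 1 in 20.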

How the results depend on the processing

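The summed log2 ratio of E16.5 proximal over E11.5 was -1.28 with cells thinned, -1.19 without epithelial clusters, -1.33 without doublets and -1.35 without *Arl6ip1* and *Kpna2*. That of E16.5 distal over proximal was -0.243, -0.204, -0.112 and -0.0724 in the same order. The difference in G2/M-high share between E11.5 and E16.5 proximal was 33.8 percentage points with 3 members required, 23.0 with 10 and 21.8 with no thinning. That of distal minus proximal was -8.12, -3.10 and -16.7. Requiring 10 members gave 10.3 for the basal epithelial-like minus chondrocyte-like difference. The count of members lower in sorted cells was 20 with no filter on low counts, and 34 and 37 of 40 had a lower value when either whole limb library was left out, with no test. Genes passing between G2/M-high and other cells numbered 2235 with cluster weights, 424 with no replicate block, that is with the library left out of the model, and 5410 to 6236 with each library left out in turn. Depth ratios ranged from 0.530 to 0.560 on the log2 scale over the same omissions. The causes were not tested. In the sorted against whole limb fit, 4006 genes were lower and 4054 higher, against 2974 and 1896 with DESeq2, 2021 and 1882 with no filter and 2473 and 5504 with library totals. Members higher numbered 2, against 0 with DESeq2 and with no filter, 1 with limma-voom and 3 with library totals. None of the ratios, share differences or depth ratios changed sign under the alternatives listed. For sorted against whole limb, no paired analysis was possible because the sorted libraries carry no replicate numbers to pair with the whole limb replicates. Depth limits single cells: at 3000 UMIs a cell with few member transcripts cannot be told from one with none, and one library per stage gives no spread between embryos.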

Other observations

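*Kpna2* differed between sorted libraries, with 19.0 CPM in G2/M-high cells on E11.5, then 54.1 (E12.5), 29.0 (E13.5), 95.1 (E14.5), 31.1 in the E16.5 proximal and 58.0 in the E16.5 distal segment. No other member was at least 2-fold higher at E14.5 than at E13.5. In other cells it was at 2.38 CPM on E11.5, then 5.63 (E12.5), 3.20 (E13.5), 11.8 (E14.5), 4.91 in the proximal and 6.78 in the distal segment.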
